A study of Mus musculus with 4 samples.

Results

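Immediate early genes are genes whose transcription starts within minutes of a growth factor, a stress or another stimulus, from factors already present in the cell. In this set of embryonic mouse limb arrays 10 of them were followed: Fos, Fosb, Jun, Junb, Egr1, Ier2, Atf3, Dusp1, Btg2 and Zfp36. They were chosen by name, and each was represented by 1 probe set, so that 10 of the 16492 probe sets tested are described. RNA was taken from fore- and hindlimbs of embryos at E12.5, with both limb pairs together, on a C57BL/6 background. The wildtype limbs carried no transgene. The transgenic limbs carried the human SHOXa cDNA behind a Col2a1 promoter and enhancer, a cassette active in cartilage-forming cells, which are part of the cells in a limb. Founders came from C57BL/6 x DBA/2 hybrid eggs and were mated to C57BL/6 mice. The study kept more than 1 heterozygous line, and which line went on the arrays is not given in the sources used here.

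Each genotype was measured on 2 arrays, and each array carried RNA pooled from 2 to 4 littermates. Titles of 1 wildtype and 1 transgenic array end alike, and such a pair is taken as a hybridization experiment, of which there were 2. They are called experiment 1, with replicate 1 of each genotype, and experiment 2, with replicate 2, in no order of time. Experiment 2 is the one in which Col2a1, the main collagen of cartilage, was higher, by 1.21 on the log2 scale. The deposited values are log2 expression values, and array medians lay between 7.81 and 7.85. Across probe sets, which are no replicates of each other, arrays of the same experiment correlated at 0.998 and 0.997 (Pearson's r), and arrays of the same genotype at 0.987 and 0.986. Xist, which coats the inactive X in females, differed between the genotypes by -2.99 on the log2 scale, and the Y-linked gene Eif2s3y by 0.83. The sex of the pooled embryos is not given in the sources used here, and genotype and sex composition cannot be told apart. The limb markers fixed for a check of the tissue had mean log2 values over 13 genes of 9.23 to 9.74 per array. Single markers were dimmer, such as Hoxa13 at 7.54 to 7.73, below the array medians. With 4 arrays, precision is limited by their number.

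Signals that reach the cell surface run through the ERK and p38 kinases to serum response factor, its Elk partners and CREB, which sit at immediate early promoters before the stimulus. The proteins made include the Fos and Jun families, which pair through leucine zippers to form the AP-1 transcription factor, and the zinc finger factor Egr1. Another group switches the response off again: Dusp1 dephosphorylates the kinases, Zfp36 speeds the decay of AU-rich mRNAs and Btg2 restrains proliferation and promotes deadenylation. Because the response is fast, these mRNAs are also known to rise while tissue is dissected and handled. In the limb bud, fibroblast growth factors of the apical ridge keep ERK active in the mesenchyme below it.

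Promoter sequences close to the start show which of these genes share a motif within a short window. Of the 10 genes, 8 were matched by symbol in the RefSeq promoter table (GRCm38.p6), which holds 250 bases before and 50 bases after each start. Searched on both strands were the cyclic AMP response element TGACGTCA, its core TGACG, which lies inside the full element, and the CArG box bound by serum response factor. The full element was found in 2 of the 8 promoters, those of Dusp1 and Btg2, and in 1.79% of all 32851 promoters of this length. The core was found in 6 of the 8, namely Fos, Fosb, Junb, Atf3, Dusp1 and Btg2, and in 20.8% of all promoters. The CArG box, searched as CC, 6 bases of A or T and GG, was found in Zfp36 alone among the 8 and in 1.63% of all promoters. Sites further upstream and looser forms of the box were not searched, so a gene without a match here may still have one. Egr1 and Ier2 were not among the 8 and were not searched. The search of members left out a chromosome that the shares over all promoters include. A member on that chromosome was thus left out whether or not the promoter table held it. The windows below, on the strand of the gene with 20 bases on either side, are shown because Dusp1 and Btg2 carry the same full element, while only Btg2 passed a test between the experiments, as described further on. Capitals mark the element or its core, and in Zfp36 the CArG box.
Dusp1, chr17:26508588-26508635, minus strand: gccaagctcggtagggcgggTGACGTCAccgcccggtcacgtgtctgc
Btg2, chr1:134079294-134079341, minus strand: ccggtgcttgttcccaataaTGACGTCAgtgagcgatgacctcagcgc
Fos, chr12:85473804-85473848, plus strand: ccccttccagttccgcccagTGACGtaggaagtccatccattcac
Fosb, chr7:19310081-19310125, minus strand: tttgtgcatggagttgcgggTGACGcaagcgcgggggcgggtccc
Junb, chr8:84978830-84978874, minus strand: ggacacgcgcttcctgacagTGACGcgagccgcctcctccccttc
Zfp36, chr7:28379257-28379306, minus strand: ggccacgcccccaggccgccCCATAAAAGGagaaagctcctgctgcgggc
The element begins 143 bases before the start in Dusp1 and 166 bases before it in Btg2. In Fos and Fosb the core shown begins 66 and 60 bases before the start, and in Junb 106 bases before it. In Zfp36 the CArG box begins 58 bases before the start. A match of letters is a description, not a sign that a factor was bound in these limbs.

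The comparison of genotypes asks which limb genes respond to the SHOX transgene. None of the 10 immediate early genes passed the fold and p thresholds, a log2 difference beyond 0.2 with an unadjusted p under 0.05 from limma, or an adjusted p of 0.05. The limits of the fold and p thresholds are those of the study, which applied them to its own mixed model and also asked for a change in both experiments, a condition not applied here. At the thresholds 0.188% of all probe sets passed (0.133% higher and 0.0546% lower in transgenic limbs) and at the adjusted p 0%. The split of 22 higher and 9 lower became 18 and 19 with arrays centred on a common median. No member had an unadjusted p under 0.05 in that fit, beside 32 of all 16492 probe sets, and the members' lowest was 0.196 for Egr1. With the experiment as a block, again 0 of 10 passed either rule, beside 1.55% of all probe sets at the thresholds (1.23% higher, 0.321% lower) and 0.273% at the adjusted p (0.255% higher, 0.0182% lower). In the blocked fit 2 members had an unadjusted p under 0.05, Egr1 and Ier2, beside 1306 of all 16492 probe sets. These 2 members lay in opposite directions. Over the 10 genes the median log2 difference, transgenic minus wildtype, was -0.02, and over all probe sets it was -0.01. By experiment the members' median was -0.02 and -0.01. The differences ran from -0.16 to 0.14, and 5 members were above and 5 below 0, beside 7152 and 9340 of all 16492 probe sets.

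**Figure D1:**
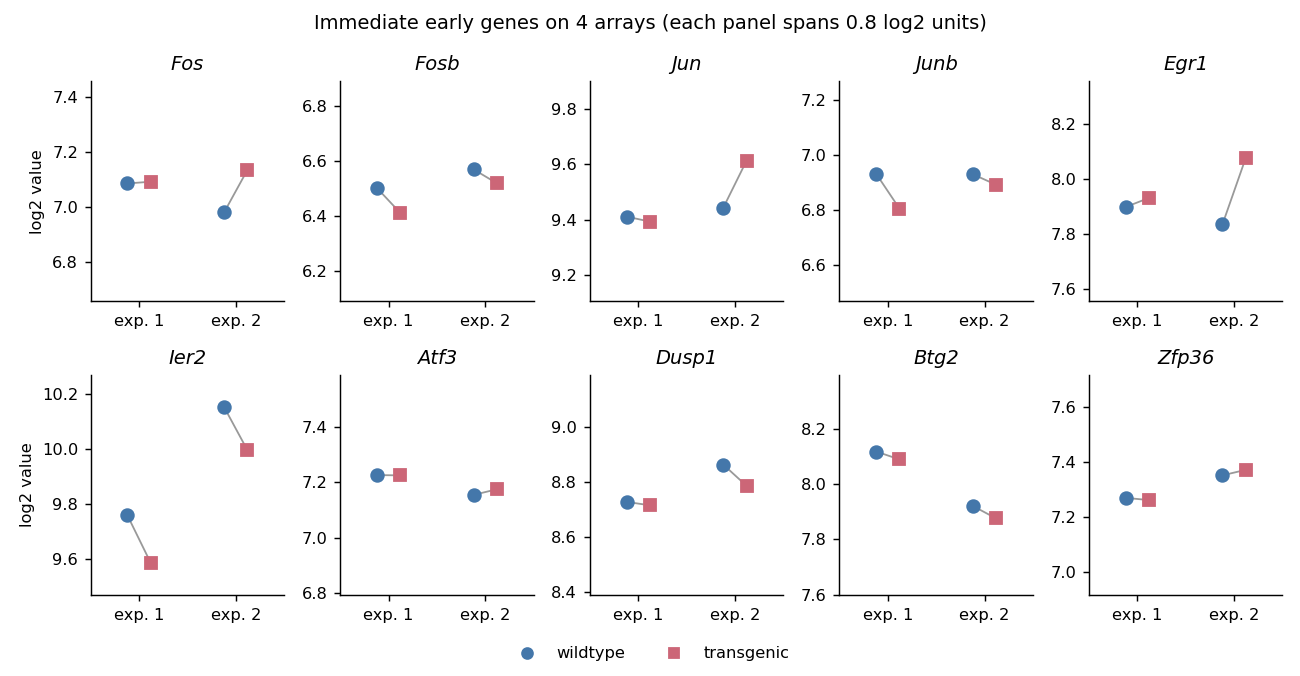
Log2 values of the 10 immediate early genes on each of the 4 arrays, by hybridization experiment, with circles for wildtype, squares for transgenic limbs and a line joining the arrays of an experiment; every panel spans the same height. Ier2 moves most between the experiments and Btg2 moves the other way, while the lines between genotypes are short in most panels and steepest for Egr1, Jun, Ier2 and Fos.

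Egr1, the zinc finger factor, stood at log2 7.90 (wildtype) and 7.93 (transgenic) in experiment 1, and at 7.84 and 8.08 in experiment 2. Both transgenic arrays lay above both wildtype arrays, but most of the distance came from experiment 2, where the difference was 0.24 against 0.03 in experiment 1. The transgenic mean was 8.004 ± 0.10 (SD, n = 2) and the wildtype mean 7.87 ± 0.04 (SD, n = 2), for a log2 difference of 0.14 (standard error 0.09 without and 0.06 with the block). Its adjusted p from limma was 1 without the block and 0.608 with it (limma's unadjusted p with the block was 0.0436).

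Ier2, a nuclear protein of the early response, stood at log2 9.76 (wildtype) and 9.59 (transgenic) in experiment 1, and at 10.15 and 9.996 in experiment 2. The transgenic array was the lower in both experiments, by 0.17 and 0.16, yet the genotypes overlapped, since both arrays of experiment 2 lay above both of experiment 1. The log2 difference of -0.16 had a standard error of 0.20 without the block and 0.06 with it. The adjusted p from limma was 1 without and 0.401 with the block (limma's unadjusted p with the block was 0.0112). Without the block the interval at the 95% level ran from -0.71 to 0.38.

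Among the AP-1 genes, Fos stood at log2 7.09 (wildtype) and 7.09 (transgenic) in experiment 1, and at 6.98 and 7.14 in experiment 2. Jun, its main partner, had 9.41 and 9.39 in experiment 1 and 9.44 and 9.61 in experiment 2. Fos and Jun, like Egr1, were thus nearly level between genotypes in experiment 1 and higher on the transgenic array of experiment 2, by 0.15 and 0.17. The difference between the experiments in these genotype differences was not tested, since each experiment holds 1 array per genotype. Over both experiments the log2 difference was 0.08 for Fos and 0.08 for Jun (limma's blocked adjusted p 0.831 and 0.848). Jun alone of these 3 genes overlapped between the genotypes.

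Fosb and Junb, paralogs of Fos and Jun, had genotype differences below 0. Fosb stood at log2 6.50 (wildtype) and 6.41 (transgenic) in experiment 1, and at 6.57 and 6.52 in experiment 2. Junb, a Jun protein that can restrain c-Jun, had 6.93 and 6.80 in experiment 1 and 6.93 and 6.89 in experiment 2. Both were lower on the transgenic array of each experiment, with log2 differences of -0.07 and -0.08, and neither passed (limma's blocked adjusted p 0.851 and 0.817). For Junb the wildtype arrays differed by 0.002 on the log2 scale, and both transgenic arrays lay below them. Fosb was the only member whose mean log2 value lay under the lower quartile of all probe sets. The 5 members below the median were Fosb, Fos, Junb, Atf3 and Zfp36. Signal over background is not known for these arrays, so a small change of such dim probe sets may not be measurable.

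Atf3, a stress-induced factor of the ATF and CREB family, had the smallest spread of the 10, with log2 values of 7.23 on both arrays of experiment 1 and of 7.16 (wildtype) and 7.18 (transgenic) in experiment 2. The whole range of its 4 values was 0.07, and 93.2% of all probe sets had a larger range. Zfp36 had 7.27 (wildtype) and 7.26 (transgenic) in experiment 1, and 7.35 and 7.37 in experiment 2. Their genotype differences of 0.01 and 0.01 were the smallest among the members.

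Of the genes that end the response, Dusp1 stood at log2 8.73 (wildtype) and 8.71 (transgenic) in experiment 1, and at 8.86 and 8.79 in experiment 2. Btg2 had 8.12 and 8.09 in experiment 1, and 7.92 and 7.88 in experiment 2. Both were lower on the transgenic array of each experiment by less than 0.08 (log2 differences of -0.04 and -0.04, limma's blocked adjusted p 0.920 and 0.934).

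Counted by overlap, Fos and Egr1 had both transgenic arrays above both wildtype arrays and Junb had both below, 3 of 10 members, beside 18.4% of all probe sets (5.67% higher, 12.7% lower). By sign, the transgenic array was the higher in both experiments for 2 members and the lower for 5, beside 22.4% and 30.5% of all probe sets, or 7 of 10 against 52.9% with the same sign in both. With the block, the intervals at the 95% level for the 10 genotype differences lay between -0.29 and 0.27 on the log2 scale, or ratios of 0.820 to 1.21 of transgenic to wildtype. The spread behind that range is mostly borrowed from the other probe sets, because each gene keeps 1 residual degree of freedom in that fit. Without the block the intervals were wider, and a change past 0.2 was inside the interval in at least 1 direction for 10 of 10 members.

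**Figure D2:**
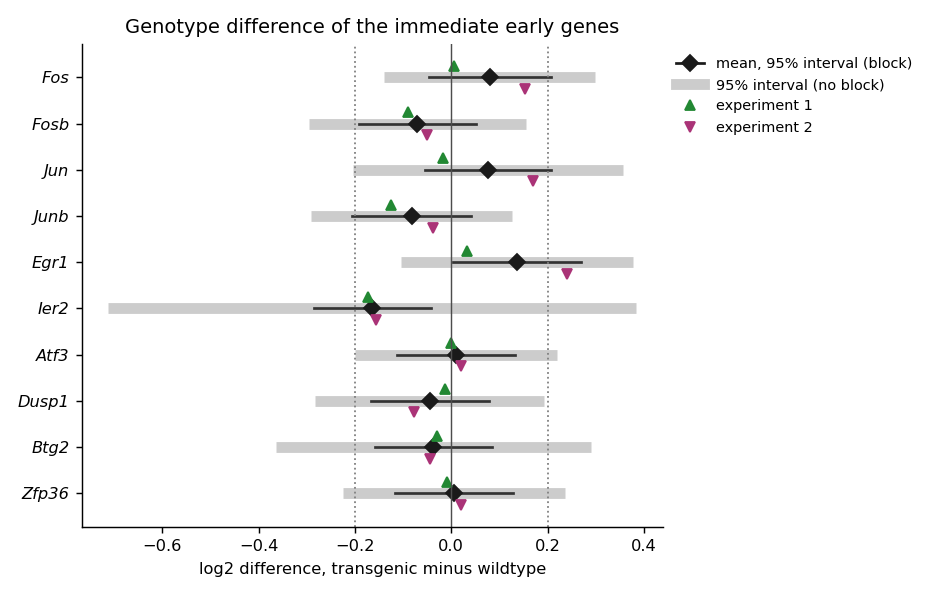
Log2 difference, transgenic minus wildtype, of the 10 immediate early genes, with diamonds for the mean, dark lines for the interval at the 95% level with the experiment as a block, grey bars for the interval without it, and triangles for the difference in each experiment; dotted lines mark 0.2 on either side. No mean lies past a dotted line, and the grey bar of Ier2 is the widest, from -0.71 to 0.38.

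The comparison of the 2 hybridization experiments shows how far these genes move between the pairs of arrays. Embryo pool and hybridization batch go together in these pairs and cannot be told apart. The movement between experiments is part of the spread in the genotype fit without the block and is removed in the fit with it. With genotype in the fit, 2 of the 10 members passed an adjusted p of 0.05 and also the fold and p thresholds, Ier2 upwards and Btg2 downwards in experiment 2. Of all probe sets 39.2% passed the adjusted p (20.1% higher, 19.1% lower) and 30.2% the fold and p thresholds (15.4% higher, 14.8% lower), so the members' share was not above that of the array. For 7 of the 10 genes the experiments differed by more than the genotypes did, a count not made for all probe sets. The median absolute difference between experiments was 0.09 for the members and 0.11 for all probe sets. Between genotypes it was 0.07 for the members and 0.04 for all, so over all probe sets too the experiments lay further apart.

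Ier2 was higher in experiment 2 by 0.39 in wildtype and by 0.41 in transgenic limbs, the largest movement of a member. The mean of 9.67 ± 0.12 (SD, n = 2) in experiment 1 and 10.07 ± 0.11 (SD, n = 2) in experiment 2 gave a log2 difference of 0.40 (standard error 0.06, adjusted p = 2.64e-05 from limma), a ratio of 1.32. Of all probe sets 8.51% had a larger absolute difference. Btg2 fell in experiment 2 by 0.20 in wildtype and by 0.21 in transgenic limbs. Its mean was 8.11 ± 0.02 (SD, n = 2) in experiment 1 and 7.90 ± 0.03 (SD, n = 2) in experiment 2 (log2 difference -0.21, standard error 0.06, adjusted p = 0.00821 from limma), and 29.2% of all probe sets had a larger absolute difference. Ier2 and Btg2 thus moved apart, and they had the most different profiles of all pairs of members, at a Euclidean distance of 0.62 between their centred log2 values over 4 arrays.

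Another 5 members had both arrays of one experiment above both of the other without passing the test. Dusp1, Zfp36, Fosb and Jun were higher in experiment 2, with log2 differences of 0.10, 0.10, 0.09 and 0.13 (adjusted p from limma 0.181, 0.212, 0.258 and 0.119). Atf3 was lower, at -0.06 (adjusted p from limma 0.443). With Ier2 and Btg2 this makes 7 of 10 members whose experiments did not overlap, beside 66.4% of all probe sets (34.5% higher, 31.9% lower). The same 7 had the same sign in both genotypes, 5 higher and 2 lower, where 76.4% of all probe sets did (39.9% higher, 36.6% lower). Dusp1 and Btg2, whose promoters both hold the full cyclic AMP element printed above, stood at 0.10, which did not pass, and -0.21. Fos, Egr1 and Junb overlapped between the experiments, with differences of -0.03, 0.04 and 0.04, and each of these 3 moved up in transgenic and down in wildtype limbs.

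**Figure D3:**
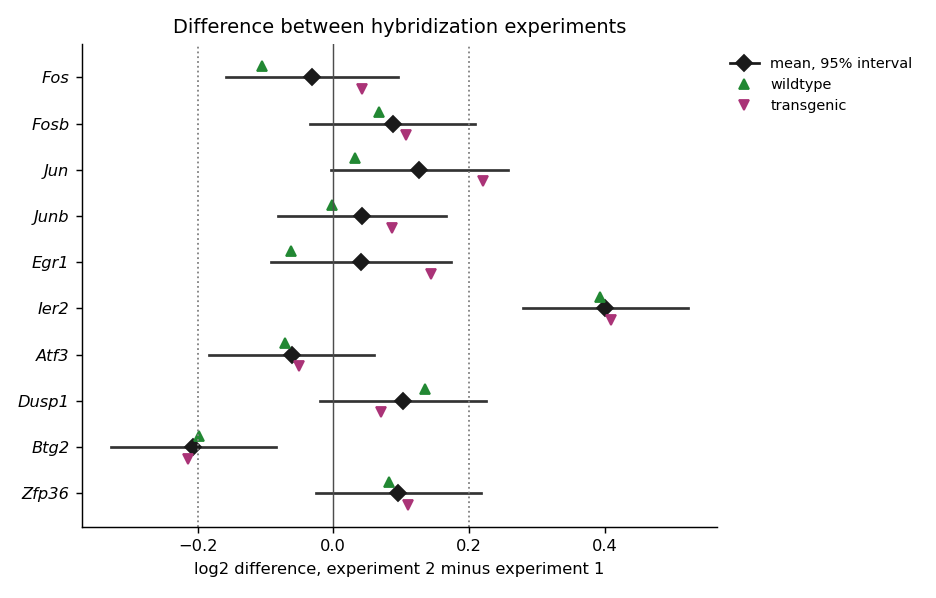
Log2 difference, experiment 2 minus experiment 1, of the 10 immediate early genes from the fit with genotype, with diamonds for the mean, lines for the interval at the 95% level and triangles for the difference within each genotype; dotted lines mark 0.2 on either side. Ier2 lies at 0.40 and Btg2 at -0.21, and the 2 genotypes of each lie close together.

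The members did not share 1 profile over the arrays. The median of their centred log2 values ran only from -0.05 on the transgenic array of experiment 1 to 0.04 on the transgenic array of experiment 2. The closest pair was Fosb and Junb, at a Euclidean distance of 0.05 over 4 arrays, and the next was Fosb and Dusp1, at 0.06. The named probe sets nearest to the members' median profile were Tk2, Defb29, Spata3, Kcnh5, Lhx4 and Kif12, at distances of 0.01 to 0.02 over 4 arrays, a likeness in which small movement counts as much as direction.

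A further list of 38 early response genes, all measured, gave the wider family. By genotype none passed without the block, and with it 1 was higher by either rule and none lower. Of all probe sets 1.23% were higher and 0.321% lower at the thresholds with the block, and 0.255% and 0.0182% at the adjusted p. The gene that passed was Ccn2, the matricellular connective tissue growth factor that the study lists as Ctgf. The study picked it from these arrays, so its direction on them is not independent evidence. Its other assays of this gene included quantitative RT-PCR and in situ hybridization of limbs and transfected human cells. Ccn2 stood at log2 8.98 (wildtype) and 9.31 (transgenic) in experiment 1, and at 8.74 and 9.10 in experiment 2. Its log2 difference was 0.34 (standard error 0.06, limma's adjusted p 0.0129 blocked and 1 unblocked). The list's median was 0.01. Arc, an activity-regulated gene of neurons, had the lowest difference, -0.16 (limma's blocked adjusted p 0.423), and Cebpd, a leucine zipper factor, and Sgk1, a serum-induced kinase, had 0.16 and 0.15 (0.425 and 0.463).

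Between the experiments 4 of the 38 were higher and 9 lower in experiment 2 at an adjusted p of 0.05, beside 20.1% and 19.1% of all probe sets (3 and 9 at the fold and p thresholds, beside 15.4% and 14.8%). Rhob, a small GTPase induced by growth factors, rose by 0.63 on the log2 scale (adjusted p = 2.18e-06 from limma). Plk2, a serum-inducible kinase, fell by 0.62, Klf6, a zinc finger factor, by 0.53, and Id1, a BMP-induced inhibitor of bHLH factors, by 0.46 (adjusted p from limma 2.29e-07, 1.55e-06 and 8.24e-06). The median was 0.01 here too. Among other members of the families followed above, genotype log2 differences were 0.02 for Jund, 0.05 for Egr2 and -0.05 for Egr3, named here because they are paralogs.

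Of 14 measured genes of 18 that encode factors and kinases upstream of the response, none passed by genotype with or without the block, and the lowest and highest differences were -0.13 for Elk4, an Elk partner of serum response factor, and 0.12 for Crem, a CREB relative. Between experiments 5 were higher and 4 lower in experiment 2 at an adjusted p of 0.05, beside 20.1% and 19.1% of all probe sets. Srf, which encodes serum response factor, rose by 0.35, its partner Elk3 by 0.35 and the kinase gene Map2k2 by 0.37, while Creb1 fell by 0.38 (adjusted p from limma 0.000126, 0.000192, 5.6e-05 and 4.52e-05). Of 12 measured genes of ERK feedback none passed by genotype. A difference below 0 was seen for 9 of them (median -0.04), beside 9340 of all 16492 probe sets. Between experiments 5 were higher and 2 lower in experiment 2 at the same adjusted p, beside the same shares of all probe sets. Spry1, an inhibitor of receptor tyrosine kinase signalling, rose by 0.47 and Etv4, an Ets factor of the limb bud, by 0.36, while Dusp6, the ERK phosphatase, fell by 0.34 (adjusted p from limma 4.48e-06, 7.64e-05 and 0.00021).

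Lists of other stress programmes were read in the same way. No gene of 10 heat shock, 10 ATF4 stress and 11 hypoxia genes measured passed an adjusted p of 0.05 by genotype, with or without the block, and the medians were -0.02, -0.00 and 0.06. At the fold and p thresholds with the block, Vldlr of the ATF4 list, a lipoprotein receptor, and Pdk1 of the hypoxia list, the pyruvate dehydrogenase kinase, were higher, by 0.23 and 0.21. Between experiments 2 heat shock genes were higher and 3 lower, 4 and 2 of the ATF4 list and 2 and 1 of the hypoxia list, at an adjusted p of 0.05. Of all probe sets 20.1% were higher and 19.1% lower by that rule. Ddit4, an inhibitor of mTOR signalling, rose by 0.39 and Hspe1, a mitochondrial chaperonin, fell by 0.31 (adjusted p from limma 4e-05 and 0.00106).

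**Figure D4:**
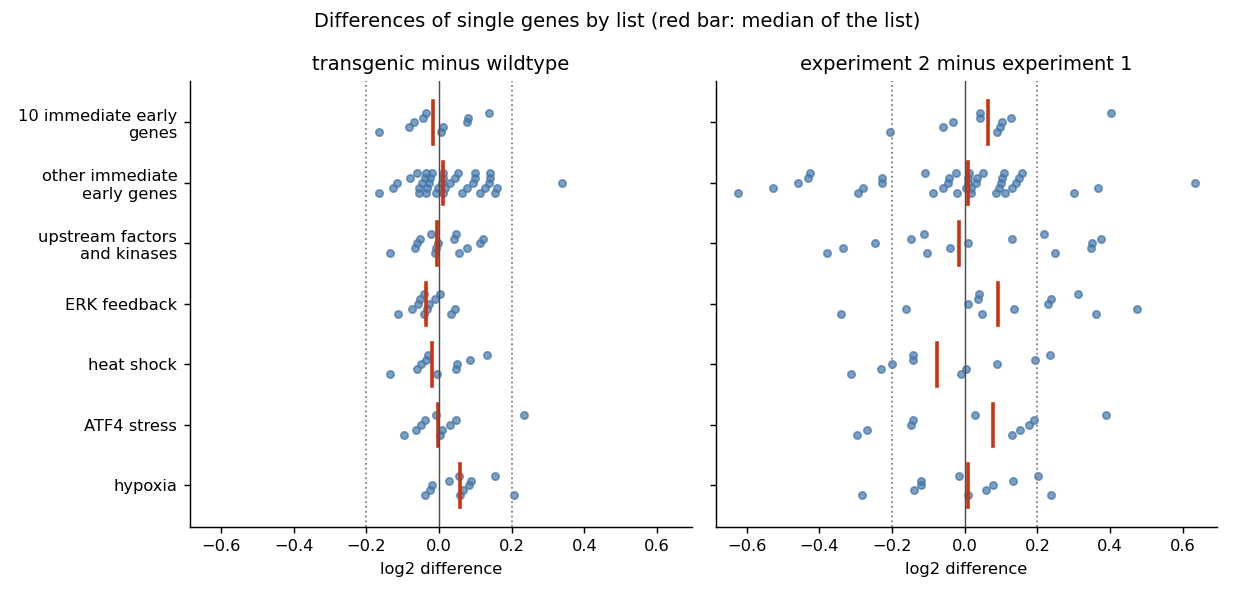
Log2 differences of single genes in 7 lists, by genotype on the left and by hybridization experiment on the right; each point is a gene, red bars are list medians and dotted lines mark 0.2 on either side. The points spread more widely on the right, and the medians of the 10 immediate early genes lie at -0.02 and 0.06.

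The experiments also differed in markers of cell types. At an adjusted p of 0.05, 20.1% of all probe sets were higher and 19.1% lower in experiment 2. Of 13 limb markers 10 were higher and none lower by that rule, with a median of 0.41. Of 11 macrophage markers 9 were lower and none higher (median -0.30), and their mean log2 value per array was 7.81 and 7.84 in experiment 1 and 7.50 and 7.60 in experiment 2. Of 10 epidermal markers 7 were lower and none higher (median -0.38), and of 9 muscle markers 7 were lower and 1 was higher (median -0.35). Endothelial markers went both ways, 2 higher and 3 lower of 10, as did erythroid ones, 3 higher and 1 lower of 7. Of 8 neuronal and Schwann cell markers 5 were lower. In limb RNA, fewer cells of a type and less RNA per cell cannot be told apart. The part of cell composition in the movement of Ier2 and Btg2 was not tested. By genotype 7152 of all 16492 probe sets were above and 9340 below 0. Of the 10 epidermal markers 7 were above and 3 below 0 by genotype, with a median of 0.02. Among them Krt8 and Krt18, keratins of simple epithelium, passed the fold and p thresholds without the block, with log2 differences of 0.50 and 0.24 (limma's adjusted p 1 for both without the block, and 0.000347 and 0.119 with it), and none of the 11 macrophage markers did. Without the block 0.133% of all probe sets were higher at these thresholds and 0.0546% lower. All 9 muscle markers had a genotype difference above 0, with a median of 0.17. None passed either rule without the block, and with it 4 passed the fold and p thresholds, beside 1.55% of all probe sets, and 1 the adjusted p, beside 0.273%. Of the 13 limb markers 11 lay below 0 (median -0.04), and Tbx5, a forelimb factor, at -0.24 passed the fold and p thresholds only with the block. Of the 7 erythroid markers 6 lay below 0 (median -0.03), and Hba-x, an embryonic globin, at -0.20 likewise passed only with the block. With the block 0.321% of all probe sets were lower at the fold and p thresholds. The part of these differences in the members' genotype values was not tested.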

How the data were processed

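Values were the log2 expression values deposited by the authors for 4 arrays, 2 transgenic and 2 wildtype. The authors grouped the probes of Affymetrix mouse genome arrays by a custom Entrez gene definition. Perfect-match values were log transformed and quantile normalized, and JMP Genomics served for their log-linear mixed models. The log base was read from the range of the values and the study's log2 threshold. How probes were summarised, and on which genome build, is not stated there. Probe positions were therefore not used, and printed coordinates belong to the RefSeq promoter table. After 64 control probe sets were left out, 16492 were tested with no filter, of which 15270 had 1 gene symbol in the platform annotation and 1222 were unnamed.

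Genotypes were compared with limma 3.58.1 in R 4.3.3 (lmFit, eBayes, Benjamini-Hochberg over all probe sets), with genotype as the only term, and experiments with genotype as a covariate. The genotype fit was repeated with the experiment as a block. Arrays were paired by the title suffix and the submitters' account of 2 hybridization experiments. Replicate differences of the genotypes correlated at 0.857 across probe sets. Prior degrees of freedom were 2.4 without and 16.4 with the block. The code was tested on simulated data.

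The members and lists were chosen with earlier results of these data known. Named were all members, up to 4 genes of each list with the largest difference in each comparison, the 6 nearest profiles, Xist and Eif2s3y; Jund, Egr2, Egr3 and single marker genes were named beyond that rule. Genes of the lists without a named probe set were left out. The alternatives tried were array centring, quantile normalization run again, a mean signal filter (25th or 50th percentile), an intensity trend, no moderation, no genotype term and leaving out each array.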

Additional observations from a re-analysis of the deposited data

How the results depend on the processing

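None of the 10 immediate early genes passed by genotype under any alternative run, including the replicate block, where the count by either rule was again 0, and each array left out. Of the 10 genotype differences only those nearest 0 turned with all arrays kept: with arrays centred on a common median Atf3 was at -0.00229 and Zfp36 at -0.00606. With 1 array left out and no block, part of the distance between experiments enters the genotype difference. It then ran from -0.369 to 0.0407 for Ier2, from -0.0344 to 0.187 for Jun, from -0.0262 to 0.0455 for Atf3, from -0.112 to 0.0229 for Dusp1, from -0.144 to 0.0703 for Btg2 and from -0.0490 to 0.0608 for Zfp36. Fos and Egr1 stayed above 0 (0.03 to 0.13 and 0.06 to 0.21), and Fosb and Junb below it (-0.12 to -0.02 and -0.13 to -0.04).

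Over all probe sets the count of 31 at the fold and p thresholds by genotype became 256 with the replicate block, 15 among probe sets above the 25th and 6 among those above the 50th percentile of mean signal, 48 with an intensity trend (24 higher and 24 lower), 14 without moderation and from 12 (without wildtype replicate 2) to 56 (without wildtype replicate 1) with 1 array left out, and 20 without transgenic replicate 1. At an adjusted p the count of 0 became 45 with the block, and 1 with the intensity trend and above the 50th percentile. Between experiments, Ier2 and Btg2 passed the fold and p thresholds in each alternative that could be tested. Without moderation the fit has 1 residual degree of freedom, and 0 members and 2 of all probe sets then passed the adjusted p, while 1769 of all passed the fold and p thresholds. With 1 array left out the experiment fit with genotype has no residual degrees of freedom and gave values only, 0.39 or 0.41 for Ier2 and -0.20 or -0.21 for Btg2. Fosb could not be fitted above the 25th percentile of mean signal, and 5 members could not above the 50th. The cause of these changes was not tested beyond the number of arrays and probe sets that each alternative keeps.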
